A study of Bos taurus with 6 samples.

Results

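The proteasome genes of cattle muscle were taken as all genes whose name begins with PSMA, PSMB, PSMC, PSMD, PSME, PSMF or PSMG and a number. This rule found 47 of the 18010 genes listed, of which 46 code for proteasome subunits, regulators or assembly factors. The remaining one, PSMC3IP, a recombination protein that shares only the prefix, was listed at 0 to 0.298 FPKM and was kept apart. PSMA8 and PSMB11 were not analysed here. All 46 proteasome genes passed the filter on low values and were among the 9781 genes tested.

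The tissue was the longissimus dorsi, the long muscle of the back, from which 1 RNA-Seq library was made for each of 3 Shandong black cattle and 3 Luxi cattle aged 18 months. The former is a population bred from Japanese black, Luxi and Bohai black cattle, so that part of its ancestry is Luxi, while the latter is a local breed of China. The 2 breeds came from separate suppliers, and the herd cannot be told apart from the breed. The aligned depth was 14.1 to 14.6 gigabases in the Shandong black and 17.52 to 17.99 gigabases in the Luxi libraries. The sex of the animals is not in the labels. XIST, the RNA of the inactive X chromosome of females, was at 10.7, 4.83 and 14.04 FPKM in the Shandong black animals and at 0, 0 and 0.207 FPKM in the Luxi animals, so that sex and breed cannot be told apart either. In what follows, the values of a breed are given in the order of its animals 1, 2 and 3, and FPKM is the number of fragments scaled for transcript length and library size, a level per length that can be compared between genes.

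The proteasome degrades proteins that carry ubiquitin chains. Its 20S core is a barrel of alpha rings, which form the gate, around beta rings, which hold the cutting sites. A 19S cap binds the ubiquitin chain, removes it and feeds the unfolded protein into the core through a ring of ATPases. In cells exposed to interferon, PSMB8, PSMB9 and PSMB10 replace the cutting subunits PSMB5, PSMB6 and PSMB7, which yields the immunoproteasome. Other activators can bind the core in place of the cap, among them PA28, made of PSME1 and PSME2 or of PSME3, and PA200, which is PSME4. In skeletal muscle the proteasome is a main route by which myofibrillar proteins are broken down during atrophy.

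The 46 genes covered a wide range of levels in both breeds. The mean over the 6 animals ran from 0.899 FPKM for PSMB9 to 60.2 FPKM for PSMB3, with a median of 17.7 FPKM, while the median of all genes tested was 3.72 FPKM. Together they held 0.387, 0.434 and 0.394% of the gene FPKM in Shandong black cattle and 0.356, 0.393 and 0.351% in Luxi cattle, and these shares overlapped between the breeds. The plot of FPKM by animal shows that the core and cap genes lay mostly above the immunoproteasome and assembly genes.

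**Figure D1:**
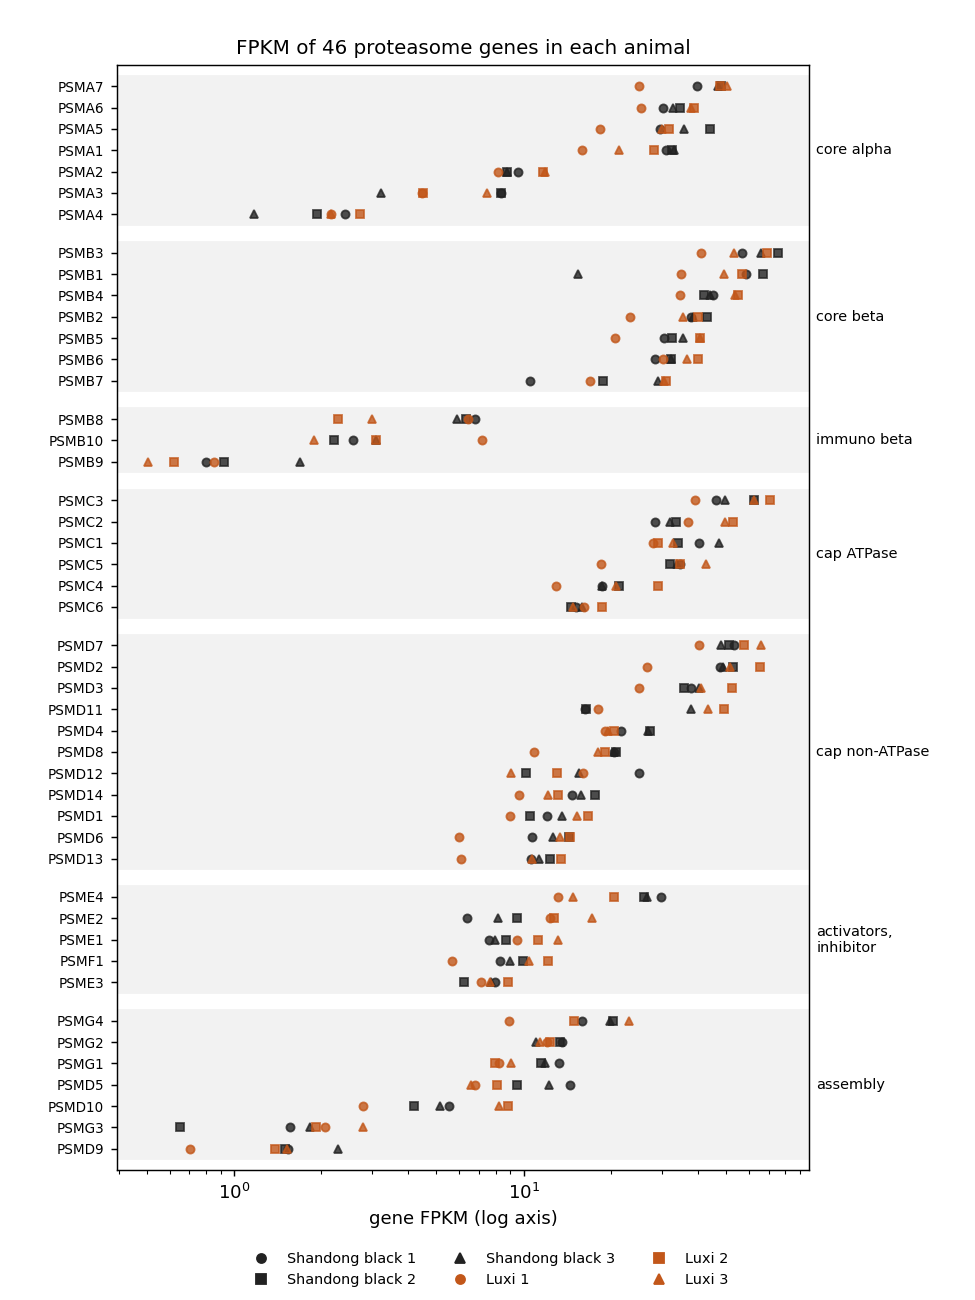
Gene FPKM (log axis) of the 46 proteasome genes, 1 symbol per animal, grouped by role and ordered by mean within a role. PSMB3 is the highest gene on average at 60.2 FPKM and PSMB9 the lowest at 0.899 FPKM, and the circle of Luxi animal 1 is the lowest of the 6 in 27 of the 46 genes.

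No proteasome gene was called different between the breeds. The threshold was a limma adjusted p under 0.05 and a change of 1 or more on the log2 scale. Of the members, 0 of 46 passed, against 2.57% of all genes tested, and among 46 genes 0 is near that share. With no limit on the fold change, again 0 members passed, against 2.92% of all genes. With limma voom on the bases covered, 0 members passed as well, against 0.93% of all genes. At an unadjusted limma p under 0.05 there were 4 members, or 8.70%, namely PSMD5, PSME2, PSME4 and PSMG1, against 21.8% of all genes tested.

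The direction of the differences was mixed. In 8 members (17.4%) all 3 Luxi animals lay below all 3 Shandong black animals, namely PSMA1, PSMC1, PSMD4, PSMD5, PSMD8, PSMD14, PSME4 and PSMG1, against 9.13% of all genes tested. In 4 members (8.70%) all Luxi animals lay above, namely PSMC2, PSME1, PSME2 and PSMG3, against 20.0% of all genes. With TPM in place of FPKM, 13 members (28.3%) were lower in all Luxi animals, against 11.1% of all genes, with PSMA5, PSMA7, PSMB2, PSMB3 and PSMD9 added. In the other direction PSMG3 then overlapped, which left 3 members (6.52%), against 13.9% of all genes. From reference transcripts alone, PSMA1 and PSMD4 overlapped, which left 6 members lower (13.04%, against 10.1% of all genes) and 4 higher (8.70%, against 18.3%). The median log2 fold change, Luxi minus Shandong black, was -0.04 over the 46 members and 0.13 over all genes tested. When the libraries were scaled by median-of-ratios size factors the same medians were -0.19 and 0.01.

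**Figure D2:**
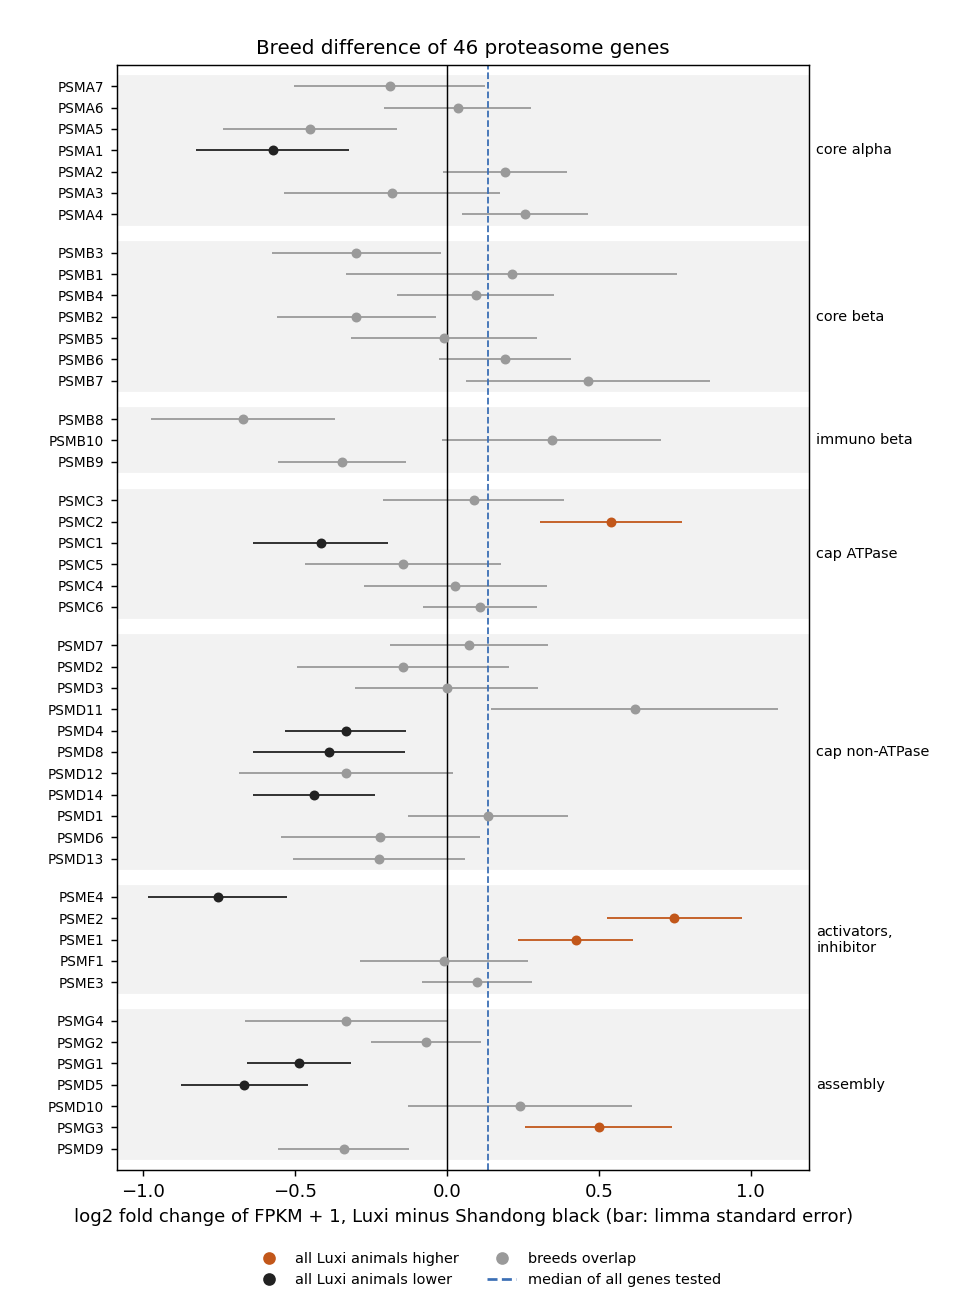
Log2 fold change of FPKM + 1 of each of the 46 proteasome genes, Luxi minus Shandong black, with the limma standard error as a bar. Genes in orange were higher in all Luxi animals and genes in black lower in all of them, and the dashed line marks the median of all genes tested at 0.13.

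One library stood apart and touched most of these values. In Luxi animal 1 the members lay 0.39 below their mean over the 6 animals on the log2 scale at the median, while the median of all genes tested was -0.01 in that animal. It held the lowest value of the 6 animals in 27 members (58.7%), compared with 23.3% of all genes tested. The sum over the 14 core genes PSMA1 to PSMA7 and PSMB1 to PSMB7 was 418, 489 and 422 FPKM in Shandong black cattle and 301, 497 and 460 FPKM in Luxi cattle. The sum over the 17 cap genes was 453, 467 and 488 FPKM in Shandong black cattle and 338, 569 and 522 FPKM in Luxi cattle. The core and the cap were thus both lowest in Luxi animal 1, and the cap to core ratio, 1.08, 0.955 and 1.16 in Shandong black cattle, was 1.12, 1.14 and 1.14 in Luxi cattle. The sum over all genes was also lowest in Luxi animal 1, at 208603 FPKM against 250550 to 316748 FPKM elsewhere. As a share of that sum the members were at 0.356% there and lower, at 0.351%, in Luxi animal 3.

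The same animal differed in the genes of other cells. The summed FPKM of 12 skeletal muscle markers was 24820 in Luxi animal 1 and 47056 to 76147 in the other 5 animals. ACTA1, skeletal muscle actin, made up most of this gap, at 12237 FPKM in that animal and 32188 to 54910 FPKM elsewhere. Without ACTA1 the sum was 12583 FPKM against 14867 to 21237 FPKM, and 3 of these 11 markers were lowest in Luxi animal 1. MB, myoglobin, was at 7894 FPKM there and at 5733 to 8932 FPKM elsewhere. The sums of leukocyte, fibroblast and endothelial markers were at their highest there. They were 139 FPKM for 12 leukocyte markers against 46.4 to 102 FPKM elsewhere, and 317 FPKM for 5 fibroblast markers against 92.7 to 239 FPKM. For 3 endothelial markers the sum was 57.7 FPKM against 14.5 to 29.8 FPKM. Of the fibroblast markers, COL1A1, COL1A2 and DCN were highest in Luxi animal 1. LUM, at 8.92 FPKM there and up to 9.75 FPKM elsewhere, and PDGFRA, at 10.5 and up to 11.2 FPKM, were not. CD74, a chain that guides antigen-presenting molecules, made up 118 of the 139 FPKM of the leukocyte list. Without CD74 that sum was 21.3 FPKM in Luxi animal 1, below the 21.9 FPKM of Shandong black animal 1, and 5 of the 11 other leukocyte markers were highest in Luxi animal 1. The part of these differences in the proteasome values was not tested. In tissue of mixed cells, fewer cells of a type and less RNA per cell cannot be told apart. Without Luxi animal 1 the median log2 fold change of the members was 0.15, and that of all genes 0.16. The members higher in both remaining Luxi animals were then 17 (37.0%, against 35.9% of all genes tested), those lower in both were 10 (21.7%, against 14.6%), and 1 member (2.17%), PSMB8, was called, against 6.11% of all genes.

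**Figure D3:**
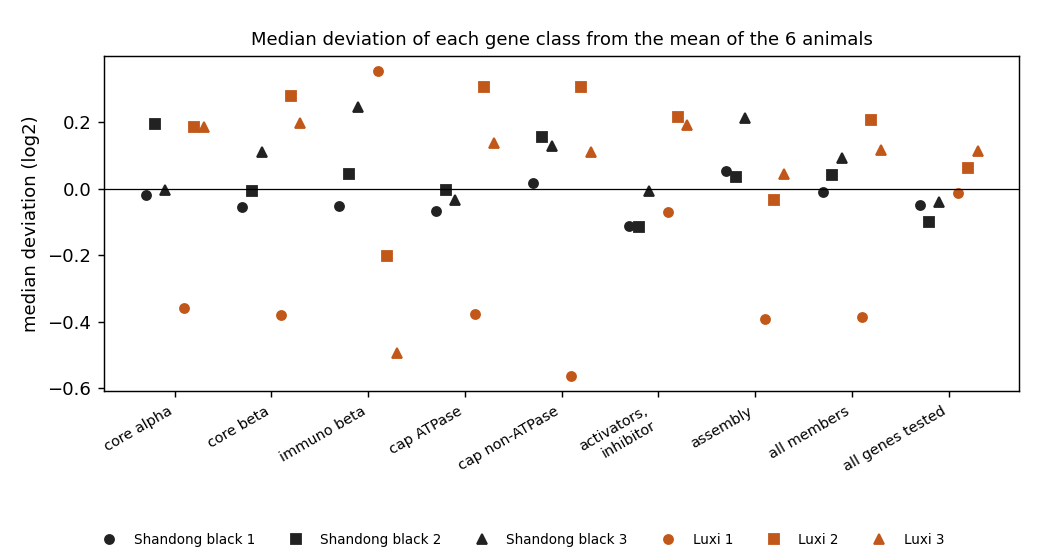
Median over the genes of each role of the deviation from the mean of the 6 animals, in log2 of FPKM + 1, with 1 symbol per animal. Luxi animal 1 lies at -0.36 to -0.56 for the core and cap roles and at 0.35 for the immunoproteasome genes, while over all genes tested it lies at -0.01.

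Among the alpha subunits, which form the outer rings and the gate of the core, PSMA7 was the most abundant, with 39.7, 48.0 and 46.9 FPKM in Shandong black cattle and 24.9, 47.7 and 50.2 FPKM in Luxi cattle. PSMA4 was the least abundant, with 2.41, 1.93 and 1.17 FPKM against 2.16, 2.71 and 2.16 FPKM. In both genes the breeds overlapped. The exons of PSMA4 were covered at a higher level, at 6.50, 4.003 and 2.76 on the scale of FPKM in Shandong black cattle and 4.83, 6.26 and 4.86 in Luxi cattle, still with overlap and below every other alpha subunit in the mean. PSMA1 (chromosome 15, 38213868 to 38226751 in ARS-UCD1.2) was the alpha subunit with the most negative difference and on FPKM the only one of the 7 without overlap. It was at 31.1, 32.4 and 32.9 FPKM in Shandong black cattle and at 15.9, 28.2 and 21.4 FPKM in Luxi cattle, with a log2 fold change of -0.57 ± 0.25 (SE, n = 3 per breed) with a limma adjusted p of 0.240. The Shandong black animals lay close together, and the Luxi animals were spread, with animal 1 the lowest.

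On FPKM the breeds overlapped for each of the 7 constitutive beta subunits. PSMB3, a structural subunit, was at 56.9, 75.3 and 65.8 FPKM in Shandong black cattle and at 41.0, 68.9 and 53.1 FPKM in Luxi cattle. Of the cutting subunits, PSMB5, which cuts after hydrophobic residues, was at 30.4, 32.5 and 35.5 FPKM against 20.7, 40.6 and 40.7 FPKM. PSMB6, which cuts after acidic residues, was at 28.3, 32.3 and 32.2 FPKM against 30.3, 40.1 and 36.5 FPKM. The 2 genes had close means and overlapped between the breeds. PSMB7, which cuts after basic residues, was at 10.5, 18.8 and 29.0 FPKM in Shandong black cattle and at 16.9, 30.9 and 30.5 FPKM in Luxi cattle, the most positive difference of the class on FPKM, at 0.46 ± 0.40 (SE, limma adjusted p = 0.526). From the coverage of its exons this difference was 0.071, below that of PSMB6 at 0.19. PSMB2, a structural subunit, had the most negative difference on FPKM, at -0.30 ± 0.26 (limma adjusted p = 0.532), almost level with PSMB3. It was at 37.7, 42.9 and 38.5 FPKM against 23.3, 39.9 and 35.3 FPKM. From the coverage of the exons PSMB1 was at -0.328, PSMB3 at -0.300 and PSMB2 at -0.297.

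The immunoproteasome subunits were expressed at much lower levels than the subunits they replace. PSMB8 was at 6.81, 6.34 and 5.89 FPKM in Shandong black cattle and at 6.42, 2.28 and 3.003 FPKM in Luxi cattle. Luxi animals 2 and 3 lay below every Shandong black animal, and Luxi animal 1 lay among them. The log2 fold change was -0.67 ± 0.30 (SE), with a limma adjusted p of 0.247 over all 6 animals. Without Luxi animal 1 it was -1.02 with a limma adjusted p of 0.0239. PSMB9, its neighbour on chromosome 23, was at 0.801, 0.925 and 1.69 FPKM against 0.853, 0.623 and 0.507 FPKM. PSMB10 was at 2.58, 2.22 and 3.08 FPKM against 7.16, 3.10 and 1.89 FPKM, with Luxi animal 1 at more than 2 times the level of any other animal. A longer reference transcript gave 2.85 FPKM of this in Luxi animal 1 and 1.34 FPKM in Luxi animal 2, but 0.00037 to 0.0032 FPKM elsewhere. The most abundant PSMB10 transcript was at 2.34, 2.22 and 1.88 FPKM against 3.61, 1.76 and 1.56 FPKM, a smaller gap. Of the leukocyte markers, CD74 was also highest in that animal, while PTPRC, which marks leukocytes, was at 1.44, 1.04 and 0.713 FPKM in Shandong black cattle and at 1.18, 0.345 and 1.15 FPKM in Luxi cattle.

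Set against the subunit it replaces in the same library, PSMB8 stood at 22.4, 19.5 and 16.6% of PSMB5 in Shandong black cattle and at 31.1, 5.62 and 7.38% in Luxi cattle. The difference of the mean log2 ratios was -0.83 (exact two-sided permutation test, p = 0.4, adjusted over the 3 ratios p = 0.6). PSMB9 stood at 2.83, 2.86 and 5.24% of PSMB6 in Shandong black cattle and at 2.82, 1.56 and 1.39% in Luxi cattle. All 3 Luxi values were lower, although that of Luxi animal 1 was almost at the lowest Shandong black value, and the difference of -0.93 had an exact permutation p of 0.1 (adjusted p = 0.3), the smallest p that 3 against 3 animals allow. PSMB10 stood at 24.6, 11.8 and 10.6% of PSMB7 against 42.3, 10.02 and 6.21%, a difference of -0.08 (exact permutation p = 0.9, adjusted p = 0.9). The 24.6% of Shandong black animal 1 rests on a PSMB7 level of 10.5 FPKM, whose exon value in that animal was 26.8. With exon values the difference of this pair was positive. By gene FPKM, which for PSMB10 includes its longer transcript, the ratios of Luxi animal 1 were thus above all others for 2 of the 3 pairs. Those of Luxi animals 2 and 3 were below all Shandong black values for all 3 pairs.

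**Figure D4:**
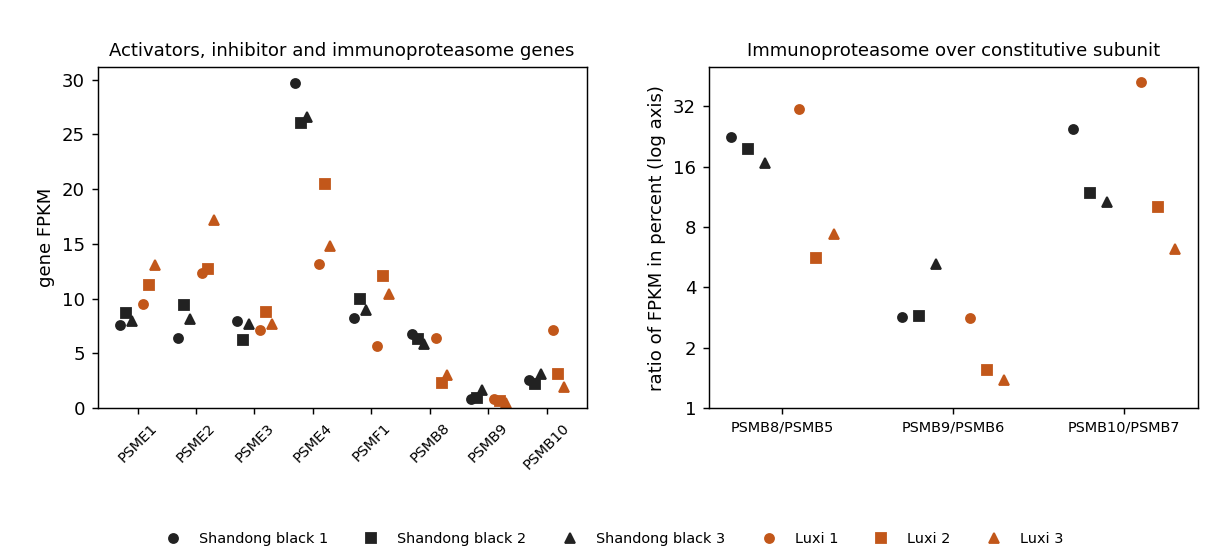
Left, gene FPKM of the activators PSME1 to PSME4, the inhibitor PSMF1 and the immunoproteasome subunits in each animal. Right, FPKM of each immunoproteasome subunit in percent of the constitutive subunit it replaces (log axis). PSME1 and PSME2 lie higher and PSME4 lower in every Luxi animal, and Luxi animal 1 lies at 31.1% for PSMB8 to PSMB5 while Luxi animals 2 and 3 lie at 5.62 and 7.38%.

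Of the 5 activator and inhibitor genes, 3 did not overlap between the breeds, and they lay in opposite directions. In Luxi cattle 2 were higher and 1 was lower, against 20.0% and 9.13% of all genes tested. PSME4 (chromosome 11, 36572842 to 36673067, minus strand), the single chain of PA200, which is mainly a nuclear activator, was at 29.7, 26.0 and 26.6 FPKM in Shandong black cattle and at 13.1, 20.5 and 14.8 FPKM in Luxi cattle. The breeds did not overlap, and the log2 fold change of -0.75 ± 0.23 (SE, limma adjusted p = 0.122) was the most negative of the 46 members on this scale. With a pseudocount of 0.1 it was -0.79 and that of PSMB8 -0.82, and with limma voom the values were -0.87 and -0.92. In Luxi animal 1 the 5′ part of its transcript, up to the midpoint, was covered less than the 3′ part, with a log2 ratio of -0.56, compared with 0.23 to 0.60 in the other 5 animals. In Luxi animals 2 and 3 that ratio was 0.47 and 0.23, compared with 0.31 to 0.60 in Shandong black cattle, and their FPKM was below that of every Shandong black animal as well.

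PSME2, the beta chain of PA28, showed the most positive difference of the 46 members on the scale of log2(FPKM + 1). With limma voom it was 0.77, below PSMB10 at 1.02 and PSMG3 at 0.81, and from reference transcripts alone it was below PSMD11. It was at 6.38, 9.45 and 8.13 FPKM in Shandong black cattle and at 12.4, 12.7 and 17.2 FPKM in Luxi cattle, with a log2 fold change of 0.75 ± 0.22 (SE) with a limma adjusted p of 0.118. PSME1, the alpha chain of the same ring, lies next to PSME2 on chromosome 10 on the opposite strand, PSME2 at 21003884 to 21007790 and PSME1 at 21012734 to 21015395, so that the 2 genes do not overlap. It was at 7.58, 8.72 and 7.98 FPKM against 9.48, 11.2 and 13.1 FPKM (0.42 ± 0.19, limma adjusted p = 0.244). Both chains were higher in every Luxi animal, and this was also so in Luxi animal 1, in which most core and cap genes were low. The 2 chains were at close levels, with a PSME1 to PSME2 ratio of 1.19, 0.922 and 0.982 in Shandong black cattle and 0.767, 0.882 and 0.762 in Luxi cattle.

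The ratio of PSME4 to PSME1 and PSME2 restates the differences given above. Since PSME4 was lower and PSME1 and PSME2 were higher in every Luxi animal, this ratio could not overlap between the breeds. PSME4 was at 4.25, 2.87 and 3.31 times the mean of PSME1 and PSME2 in Shandong black cattle and at 1.201, 1.71 and 0.974 times in Luxi cattle. This ratio does not depend on the scaling of a library, but it was formed after the values of its genes were seen and was not tested. PSME3, which forms a nuclear ring of its own, was at 7.94, 6.22 and 7.70 FPKM against 7.14, 8.80 and 7.67 FPKM. PSMF1, known as the inhibitor PI31, was at 8.27, 9.98 and 8.97 FPKM against 5.64, 12.1 and 10.4 FPKM. These 2 genes overlapped between the breeds.

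In the base of the cap, 6 ATPases form the ring that unfolds the substrate. PSMC3 was the most abundant, with 45.9, 62.5 and 49.7 FPKM in Shandong black cattle and 39.0, 70.5 and 62.2 FPKM in Luxi cattle. PSMC6 was the least abundant, with 15.2, 14.6 and 15.8 FPKM against 16.1, 18.7 and 14.8 FPKM. Although the 6 products occur in equal numbers in the ring, their FPKM differed by a coefficient of variation of 39.6 to 49.7% within an animal. The 2 ATPases without overlap lay in opposite directions. Of the 6, 1 was higher and 1 lower in all Luxi animals, against 20.0% and 9.13% of all genes tested. PSMC2 was at 28.4, 33.4 and 32.1 FPKM in Shandong black cattle and at 37.0, 52.6 and 49.5 FPKM in Luxi cattle (0.54 ± 0.23, limma adjusted p = 0.233). PSMC1 was at 40.1, 34.1 and 47.2 FPKM against 28.0, 29.1 and 32.7 FPKM (-0.42 ± 0.22, limma adjusted p = 0.319).

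Of the 11 other cap subunits, 8 had a negative and 3 a positive difference, while 3663 of the 9781 genes tested had a negative one. Luxi animal 1 held the lowest value of the 6 animals in 9 of the 11. The class median was -0.22. Without Luxi animal 1 this median was 0.14. PSMD7, a partner of the deubiquitinase PSMD14 in the lid, was the most abundant, with 53.4, 51.2 and 47.9 FPKM in Shandong black cattle and 40.4, 57.4 and 66.0 FPKM in Luxi cattle. PSMD13, a lid subunit, was the least abundant, with 10.6, 12.3 and 11.3 FPKM against 6.06, 13.5 and 10.7 FPKM. Both overlapped between the breeds, with Luxi animal 1 the lowest. PSMD14, which removes the ubiquitin chain, was at 14.7, 17.6 and 15.8 FPKM in Shandong black cattle and at 9.63, 13.2 and 12.1 FPKM in Luxi cattle, without overlap (-0.44 ± 0.20, limma adjusted p = 0.253).

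PSMD4, a ubiquitin receptor of the cap, was at 21.6, 27.2 and 26.7 FPKM against 19.1, 20.5 and 19.6 FPKM. PSMD8, a lid subunit, was at 20.5, 20.8 and 20.5 FPKM against 10.9, 19.01 and 18.01 FPKM. In these genes all Luxi animals lay below all Shandong black animals, for PSMD8 by less than 3 FPKM in Luxi animals 2 and 3. PSMD11, a lid subunit at the border to the base, had the most positive difference of the class and the widest spread of the cap, with 16.3, 16.4 and 37.8 FPKM in Shandong black cattle and 18.003, 49.2 and 43.1 FPKM in Luxi cattle (0.62 ± 0.47, limma adjusted p = 0.470). Its values fell into a low and a high set of 3 animals each, and each set held animals of both breeds.

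Assembly factors help the rings to form and leave the finished particle. PSMG4 was the most abundant of them, with 15.9, 20.3 and 19.9 FPKM in Shandong black cattle and 8.91, 14.9 and 23.0 FPKM in Luxi cattle. PSMD9, a chaperone of the base, was the least abundant, with 1.54, 1.495 and 2.30 FPKM against 0.705, 1.39 and 1.52 FPKM. PSMG1, which with PSMG2 guides the alpha ring, was at 13.2, 11.4 and 11.9 FPKM in Shandong black cattle and at 8.25, 7.93 and 9.01 FPKM in Luxi cattle. All 3 Luxi animals were lower (-0.49 ± 0.17, limma adjusted p = 0.160), and Luxi animal 1 was not the lowest of them. Its partner PSMG2 was at 13.5, 13.3 and 11.009 FPKM against 12.1, 12.3 and 11.4 FPKM, with overlap between the breeds, and the difference between the partners was not tested.

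PSMD5, a chaperone that holds ATPases of the base before they are built in, was at 14.5, 9.497 and 12.2 FPKM in Shandong black cattle and at 6.79, 8.08 and 6.56 FPKM in Luxi cattle, without overlap (-0.67 ± 0.21, limma adjusted p = 0.130). PSMG3 was the only assembly factor higher in all Luxi animals, with 1.57, 0.649 and 1.83 FPKM against 2.06, 1.91 and 2.80 FPKM (0.50 ± 0.24, limma adjusted p = 0.281), and its level was low in both breeds. PSMD10, known as gankyrin and the single member on the X chromosome, was at 5.53, 4.20 and 5.13 FPKM against 2.78, 8.85 and 8.20 FPKM. In Luxi animal 2, assembled transcripts of the opposite strand at 24.1 FPKM overlapped the span of this gene.

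The FPKM of a transcript and the coverage of its exons did not always give the same level. The length-weighted coverage of the exons, on the scale of FPKM, was within 1.1-fold of the gene FPKM in all animals for 35 of the 46 members (76.1%), and for 80.7% of all genes tested. It was more than 1.5-fold off in at least 1 animal for 7 members (15.2%), and for 4.55% of all genes. PSMB1, a core subunit, was at 58.4, 67.0 and 15.4 FPKM in Shandong black cattle and at 34.8, 56.8 and 49.0 FPKM in Luxi cattle, while the exon values of the Shandong black animals were 58.5, 66.9 and 49.8. In Shandong black animal 3, the coverage per aligned gigabase was 56.9 to 96.6 over exons 1 to 5 and 5.3 over exon 6, the last one, where the other 5 animals had 25.9 to 45.4. The low FPKM of PSMB1 in that animal was thus not matched by exons 1 to 5. PSMB7 in Shandong black animal 1 was at 10.5 FPKM with an exon value of 26.8. PSMF1 had exon values of 15.5, 18.9 and 16.8 in Shandong black cattle and of 9.60, 22.3 and 19.3 in Luxi cattle, above its FPKM in every animal.

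With exon values in place of FPKM, PSMD12, a lid subunit, joined the members without overlap, at 25.3, 18.2 and 20.3 in Shandong black cattle and 16.3, 16.4 and 14.3 in Luxi cattle, and the 12 members named above remained without overlap. This made 9 members lower (19.6%, against 9.38% of all genes) and 4 higher (8.70%, against 20.2%). For PSMD11 the exon values were 8.18, 10.99 and 30.5 against 10.1, 37.3 and 33.0. The split of this gene lay in exons 1 to 13: over exon 6, the coverage per aligned gigabase was 10.6, 9.3 and 61.0 in Shandong black cattle and 14.9, 76.5 and 69.0 in Luxi cattle. Over exon 14, the last one, it was 21.1, 14.9 and 20.1 against 21.1, 31.3 and 26.2, and thus much closer among the 6 animals.

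**Figure D5:**
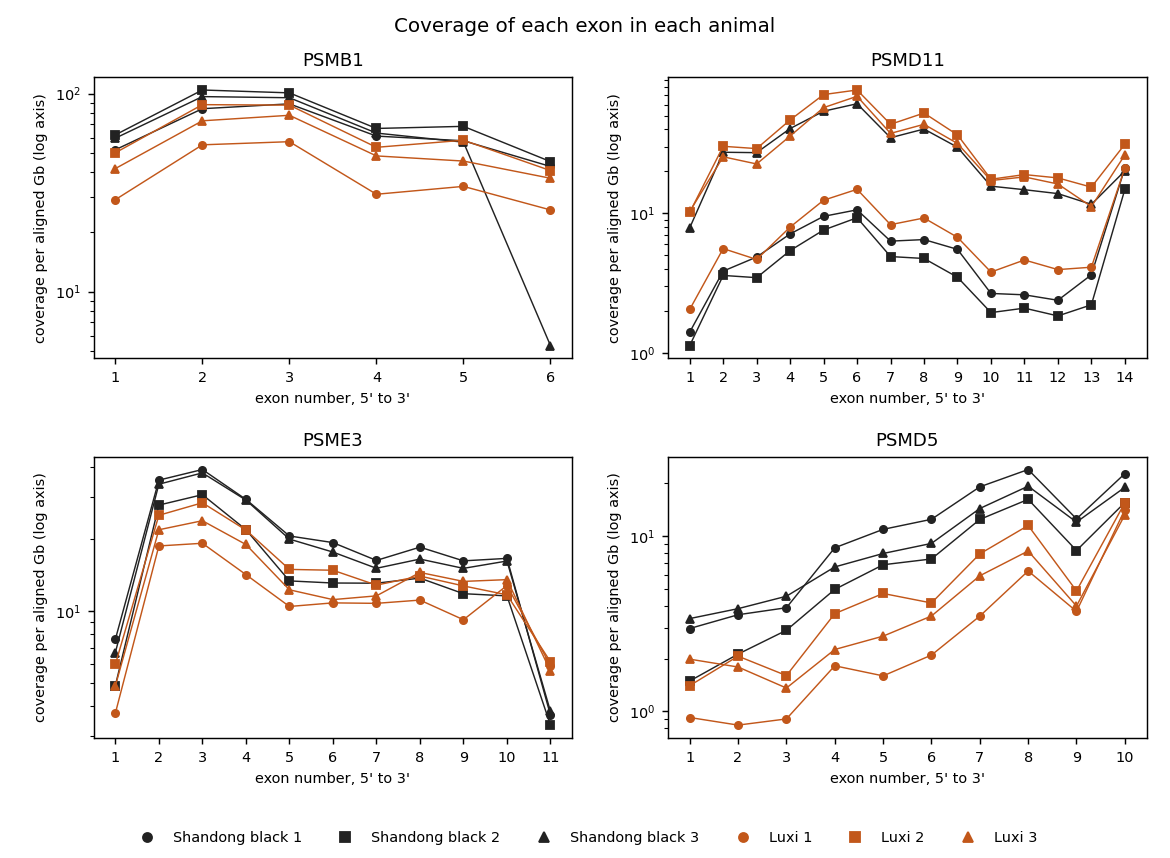
Coverage of each exon per aligned gigabase (log axis) along the most abundant reference transcript of 4 genes, with 1 line per animal. PSMB1 drops to 5.3 at exon 6 in Shandong black animal 3, PSMD11 splits into 3 high and 3 low animals over exons 1 to 13, at exon 11 of PSME3 the 3 Shandong black animals lie below the 3 Luxi animals, and PSMD5 is closest between the breeds at exon 10.

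Coverage along the transcripts also differed between the breeds. For each gene the coverage of the most abundant reference transcript up to its midpoint (the 5′ part) was divided by that beyond it (the 3′ part), which could be done for 45 members and 8114 of the genes tested. The ratio was lower in all Luxi than in all Shandong black animals for 12 members (26.7%), against 15.8% of these genes, and higher for 4 members (8.89%), against 7.35%. It was lowest of the 6 animals in Luxi animal 1 for 21 members (46.7%), against 37.2% of these genes. The gap was widest for PSME3, with log2 ratios of 1.65, 1.35 and 1.53 in Shandong black cattle and 0.36, 0.68 and 0.64 in Luxi cattle.

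Over the last exon of PSME3, exon 11, the coverage per aligned gigabase was 3.7, 3.3 and 3.8 in Shandong black cattle and 5.9, 6.1 and 5.6 in Luxi cattle. Over exon 3 it was 39.1, 30.7 and 37.9 against 19.2, 28.4 and 23.9. The last exon was thus higher and exon 3 lower in every Luxi animal, and the FPKM of PSME3, in which both are averaged, overlapped. For PSMD5, the log2 ratio of the 2 parts was -1.34, -1.48 and -1.37 against -2.74, -1.89 and -1.97. Over exon 7 the coverage was 19.1, 12.4 and 14.3 in Shandong black cattle and 3.5, 7.9 and 5.9 in Luxi cattle, while over the last exon, exon 10, it was 22.7, 15.5 and 18.95 against 14.1, 15.5 and 13.2. The gap between the breeds was thus wider over exon 7 than over the last exon, where Luxi animal 2 reached the lowest Shandong black value. The part of RNA quality in these ratios was not tested.

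Genes that work with the proteasome gave no call either. Of a list of 20 cofactors, shuttles and transcription regulators, 18 were tested. Of these, 0 passed the limma adjusted p of 0.05, against 2.92% of all genes tested. For lists as short as these, 0 is near that share. At an unadjusted limma p under 0.05, 1 was higher and 0 lower, against 21.8% of all genes in either direction. The one was RAD23B, a shuttle that carries ubiquitinated proteins to the cap, at 18.3, 71.0 and 22.9 FPKM in Shandong black cattle and 61.1, 100.3 and 94.3 FPKM in Luxi cattle, with overlap (limma adjusted p = 0.172). NFE2L1, the transcription factor that raises proteasome genes when the proteasome is inhibited, was at 72.9, 46.1 and 74.5 FPKM against 53.6, 49.98 and 49.1 FPKM. NGLY1, the glycanase that activates it, was at 8.95, 7.52 and 8.62 FPKM against 6.36, 7.08 and 6.38 FPKM. It was the only 1 of the 18 lower in all Luxi animals, against 9.13% of all genes tested. In the other direction 0 of the 18 were higher in all Luxi animals, against 20.0% of all genes. POMP, which matures the core, was at 17.3 to 18.7 FPKM in the 6 animals, with overlap between the breeds.

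Of 14 genes for ubiquitin, its activating and conjugating enzymes and muscle ubiquitin ligases, 13 were tested. Of these, 0 were called, against 2.57% of all genes tested. Again 1 was higher and 0 lower at an unadjusted limma p under 0.05, against 21.8% of all genes. The higher one was TRIM63, the muscle ligase MuRF1, at 15.3, 32.1 and 23.7 FPKM in Shandong black cattle and 81.3, 43.5 and 39.2 FPKM in Luxi cattle (1.16 ± 0.38, limma adjusted p = 0.138). All Luxi animals were higher, and Luxi animal 1, with low core and cap genes, was the highest. FBXO32, the other well-known atrophy ligase, was at 0.00889 to 0.932 FPKM and below the filter. Of the 13 genes tested, 2 were higher in all Luxi animals and 0 were lower, against 20.0% and 9.13% of all genes. The 2 were TRIM63 and UBA6, the latter at 2.33, 1.87 and 2.10 FPKM against 2.76, 3.38 and 2.58 FPKM. UBB, a ubiquitin gene, was at 246, 319 and 329 FPKM against 245, 458 and 450 FPKM, and UBA1, the main activating enzyme, at 21.3, 22.3 and 21.9 FPKM against 13.05, 23.8 and 13.06 FPKM, with overlap in both.

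Of 11 interferon response and antigen presentation genes, 5 were tested and 0 were called, against 2.57% of all genes tested. At an unadjusted limma p under 0.05, 1 was higher and 0 lower, against 21.8% of all genes. IRF1, a transcription factor that acts on immunoproteasome genes, was at 1.26, 1.26 and 1.42 FPKM in Shandong black cattle and 3.34, 1.66 and 2.60 FPKM in Luxi cattle, higher in every Luxi animal (0.58 ± 0.21, limma adjusted p = 0.164). Of the 5 tested, 1 was thus higher in all Luxi animals and 0 were lower, against 20.0% and 9.13% of all genes. TAP1, which carries peptides into the endoplasmic reticulum and lies next to PSMB9, was at 0.968, 1.63 and 1.26 FPKM against 1.56, 0.968 and 0.808 FPKM. ISG15 and MX1, induced by interferon, were below the filter in both breeds. Of the cell type markers, 5 of 6 fat cell genes were called lower in Luxi cattle, with ADIPOQ at 67.4, 30.8 and 53.6 FPKM in Shandong black cattle and at 0.576, 5.76 and 6.76 FPKM in Luxi cattle, the part of which in the proteasome values was not tested. Of the 12 muscle markers, TNNI1, a troponin of slow fibres, was called lower, at 438, 590 and 490 FPKM against 88.3, 58.5 and 190.3 FPKM (limma adjusted p = 0.0471). TNNT1, also of slow fibres, had lower and the fast-fibre genes TNNT3 and TNNI2 higher values in every Luxi than in every Shandong black animal, with limma adjusted p of 0.284, 0.101 and 0.134. Of the 5 fibroblast markers, COL1A2, a collagen chain, was called higher, at 12.6, 7.12 and 12.2 FPKM against 43.7, 30.1 and 33.0 FPKM (limma adjusted p = 0.0322). The part of fibre type and of fibroblasts in the proteasome values was not tested either.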

How the data were processed

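Longissimus dorsi RNA of 6 cattle was sequenced on an Illumina platform. The authors trimmed reads with Fastp, aligned them to ARS-UCD1.2 with HISAT2 and assembled transcripts with StringTie, which per the file headers was version 1.3.3b with the option for stranded libraries. The deposited transcript tables hold coverage, FPKM and TPM for each transcript and coverage for each exon, in a text column of other attributes, and read counts were not used here. The Cuffdiff comparison of the study was not rerun.

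Gene FPKM was the sum over the reference transcripts of a gene plus those assembled transcripts that lay to 50% or more on its exons, on the same strand. Assembled transcripts left out held 21.6 to 29.8% of the FPKM of a library. Genes that reached a mean of 1 FPKM in either breed were tested on log2(FPKM + 1) with limma 3.58.1 (lmFit, eBayes with trend) in R 4.3.3, with Benjamini-Hochberg adjustment over all 9781 genes. A fold change on this scale understates that of low genes. The fit was tested on simulated data. Ratios of pairs of genes were compared with an exact permutation test over animals in scipy 1.17.1. Aligned depth was derived from coverage and FPKM. Counting error of single genes was not derived, since FPKM is not a count.

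The members, lists and tests were chosen with earlier results of these data known. Values per animal are given for the catalytic and immunoproteasome subunits and, in each class, for the genes with the highest and lowest mean FPKM and the most positive and most negative log2 fold change. PSMB1, PSMC1 (also named by the rule), PSMD4, PSMD8, PSMD12, PSME1, PSMF1, PSMG1, PSMG2, PSMD10 and the cofactor genes were chosen after their values were seen. In the main fit, replicate numbers were not used to pair the animals. Alternatives were another pseudocount, filter, unit, scaling, variance model and gene sum, a replicate block, limma voom and leaving out each animal. The exon values, the ratio of the 5′ and 3′ parts and the marker sums without CD74 or ACTA1 were added after the data were seen.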

Additional observations from a re-analysis of the deposited data

How the results depend on the processing

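No member was called in any alternative that kept all 6 animals, and the lowest limma adjusted p of a member in these was 0.0603 to 0.150. When each animal was left out in turn, 0 to 1 members were called, also with no limit on the fold change, and the one was PSMB8 without Luxi animal 1. In the same fits 4 to 17 members were higher in all remaining Luxi animals, against 23.3 to 35.9% of all genes, and 9 to 11 were lower, against 10.7 to 15.9%. With TPM 13 were lower, against 11.1% of all genes. With TPM, size factors and quantile normalization in turn, 7, 8 and 8 members near 0 turned negative. Of the genes named by the rule the values went to -0.033, -0.068 and -0.048 for PSMC3, to -0.0060, -0.040 and -0.030 for PSMC6, to -0.047, -0.082 and -0.055 for PSMD7 and to -0.0075, -0.039 and -0.059 for PSME3. These settings also moved the median of all genes from 0.134 to 0.039, 0.0074 and 0.0030. The other members that turned were PSMA6, PSMB4 and PSMC4 under all 3 settings and PSMD1 under the last 2, and with exon values PSMB1 turned to -0.33. When each animal was left out, the log2 fold change ranged from -0.082 to 0.337 for PSMC3, from -0.17 to 0.30 for PSMB5, from -0.36 to 0.13 for PSMA7, from -0.070 to 0.678 for PSMB10, from -0.447 to 0.072 for PSMD13 and from -0.076 to 0.272 for PSMD7. The log2 difference of the PSMB10 to PSMB7 ratio was 0.19 with exon values and ranged from -0.88 to 0.50 when each animal was left out. The cause was not tested. After the breed mean of each gene was subtracted, same-numbered animals of the 2 breeds correlated at 0.075 to 0.087. Each was higher than with other numbers, at -0.107 to 0.0083. Without that subtraction, log2(FPKM + 1) of animals of different breeds correlated at 0.856 to 0.907. Whether a number stands for a shared factor was not tested. With the replicate block 0 members were called and the lowest limma adjusted p was 0.142, while calls over all genes went from 251 to 135. Depth sets no count here, and 3 animals per breed limit each comparison.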
